A study of Homo sapiens with 12 samples.

Results

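The 9 genes described here encode the machinery by which a cell shows peptides on major histocompatibility complex (MHC) class I molecules. They are HLA-B, HLA-C, HLA-E, B2M, TAP1, TAP2, TAPBP, ERAP1 and NLRC5, taken as the rows of the deposited count table whose symbol equals one of these names. All 9 had a row among the 13853 genes of the table, and all 9 passed the filter on low counts, which kept 13846 genes. The cells were H1299, an established line from a human lung carcinoma of the non-small cell kind, infected with viral vectors and drug-selected. The control cells carried a control vector (shNT, 3 libraries), and the knockdown cells carried a short hairpin against GAS41, the histone reader encoded by YEATS4 (shGAS41, 3 libraries). The labels name a single hairpin group and give no time after infection beyond the days of selection, and nothing in them ties a library to a culture of its own. The p-values below therefore rest on library-to-library spread alone, and that spread may be technical. RNA came from bulk cultures, where a change in the share of cells that express a gene and a change in RNA per cell cannot be told apart.

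A class I molecule is a heavy chain, such as HLA-B, HLA-C or HLA-E, bound to the small protein beta-2-microglobulin (B2M) and to a short peptide. The peptides are cut from cytosolic proteins by the proteasome, carried into the endoplasmic reticulum by a transporter made of TAP1 and TAP2, trimmed there by the aminopeptidase ERAP1, and loaded onto the heavy chain with the help of tapasin (TAPBP). NLRC5 is a transcriptional activator of class I genes, and interferon signalling and NF-kB are known to raise the same genes in many cell types. Tumour cells often carry low levels of these transcripts.

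The 250 bases before the annotated start of 6 of the genes are shown because their motifs are the known points of control of this family. They are RefSeq sequences on GRCh38.p14, not the build of the counts. The promoter table matched 7 of the 9 genes by symbol, HLA-E and NLRC5 being the other two. Capitals mark matches, on either strand, to 5 motifs: the interferon-stimulated response element (ISRE, GAAA, any 2 bases, GAAA), the interferon gamma activated site (GAS, TTCNNNGAA), the Y box (CCAAT), the CRE-like X2 box (TGACG) and the kappaB consensus. Matches that overlap or touch run together.
HLA-B (chr6:31357180-31357429, minus strand): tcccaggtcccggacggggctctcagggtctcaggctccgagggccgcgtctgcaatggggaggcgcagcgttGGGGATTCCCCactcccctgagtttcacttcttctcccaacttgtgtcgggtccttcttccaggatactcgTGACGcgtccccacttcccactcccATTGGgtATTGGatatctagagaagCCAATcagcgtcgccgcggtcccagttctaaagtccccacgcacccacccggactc
HLA-C (chr6:31272093-31272342, minus strand): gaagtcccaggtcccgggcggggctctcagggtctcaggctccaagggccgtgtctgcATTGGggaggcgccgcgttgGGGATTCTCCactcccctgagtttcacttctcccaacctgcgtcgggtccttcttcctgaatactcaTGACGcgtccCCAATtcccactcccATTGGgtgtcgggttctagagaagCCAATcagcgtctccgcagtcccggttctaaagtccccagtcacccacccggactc
B2M (chr15:44711267-44711516, plus strand): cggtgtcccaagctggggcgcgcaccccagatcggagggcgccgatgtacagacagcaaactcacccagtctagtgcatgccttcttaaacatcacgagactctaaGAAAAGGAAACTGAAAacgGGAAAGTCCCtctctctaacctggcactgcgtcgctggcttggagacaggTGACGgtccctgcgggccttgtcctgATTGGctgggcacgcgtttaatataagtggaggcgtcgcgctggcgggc
TAP1 (chr6:32853705-32853954, minus strand): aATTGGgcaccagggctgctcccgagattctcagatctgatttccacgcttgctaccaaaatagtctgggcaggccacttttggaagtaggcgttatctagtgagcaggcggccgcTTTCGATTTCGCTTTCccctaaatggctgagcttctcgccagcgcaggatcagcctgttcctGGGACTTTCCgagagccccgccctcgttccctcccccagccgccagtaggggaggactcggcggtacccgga
TAPBP (chr6:33314079-33314328, minus strand): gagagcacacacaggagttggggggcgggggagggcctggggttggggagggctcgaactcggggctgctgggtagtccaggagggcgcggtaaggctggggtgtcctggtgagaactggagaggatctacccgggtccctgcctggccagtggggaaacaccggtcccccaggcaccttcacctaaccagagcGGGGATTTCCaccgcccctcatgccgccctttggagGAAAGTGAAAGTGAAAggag
TAP2 (chr6:32838740-32838989, minus strand): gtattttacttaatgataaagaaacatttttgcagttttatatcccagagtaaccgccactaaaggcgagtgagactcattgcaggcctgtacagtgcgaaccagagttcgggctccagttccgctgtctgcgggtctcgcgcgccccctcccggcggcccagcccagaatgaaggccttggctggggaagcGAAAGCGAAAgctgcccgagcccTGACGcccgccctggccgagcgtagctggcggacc

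HLA-B and HLA-C had nearly the same window, with 226 identical, 20 mismatched and 8 gapped positions in a global alignment (89.0% identity). Positions count back from the start and give the first base of a match. HLA-B held overlapping kappaB matches at −177 and −176, an X2 box at −106 and Y boxes at −81, −74 and −56. HLA-C held a kappaB match at −172, an X2 box at −105 and Y boxes at −192, −95, −80 and −56. B2M held 2 overlapping ISRE matches from −144 to −129, a kappaB match from −125 to −116, an X2 box at −75 and a Y box at −49. TAP1 held 2 overlapping ISRE matches from −134 to −119, a kappaB match at −72 and a Y box at −249. TAPBP held 2 overlapping ISRE matches from −20 to −5 and a kappaB match at −56. TAP2 held an ISRE match from −58 to −49 and an X2 box, and no kappaB letters were in its window. Among the 7 matched genes, an ISRE match was in 4 (B2M, TAP1, TAP2 and TAPBP), against 3.02% of 35116 promoter windows of that length. The search took the exact ISRE letters only. Looser forms of the element were not searched, so HLA-B, HLA-C and ERAP1 may hold one. A kappaB match was in 6, against 9.96% of the windows, an X2 box in 4, against 21.2%, and a Y box in 5, against 32.0%. GAS was matched for TAP1 alone, in a second annotated start, against 6.57%. ERAP1 and TAP1 each had 2 annotated starts, and a gene counted once if either window held the letters. A match describes letters alone, also where it is called an X2 box or a Y box, and was not tested for binding.

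**Figure D1:**
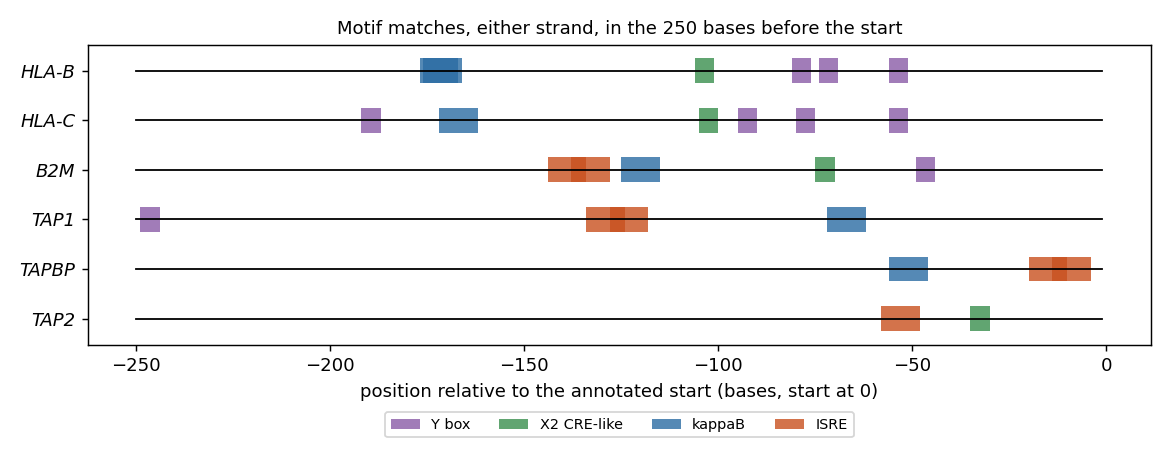
Positions of motif matches in the 250 bases before the annotated start of 6 class I pathway genes (x axis: bases from the start; coloured boxes: matches on either strand). HLA-B and HLA-C both carry kappaB, X2 box and, nearest the start, Y box matches in that order, and HLA-C holds a further Y box match at −192, before its kappaB match. Matches to the exact ISRE letters lie in B2M, TAP1, TAPBP and TAP2, and looser forms were not searched.

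Knockdown and control libraries differed in the targeted transcript as their labels say: YEATS4 counts were between 2820 and 3245 under the control vector and between 108 and 127 under the hairpin. Total counts ranged from 58629147 to 72747010. Over all genes, 1 library of each group stood apart from the other two. The chi-square per degree of freedom between knockdown library 1 and the others was 24.9 and 28.4, against 4.24 between libraries 2 and 3, and for control library 1 it was 14 and 23.4, against 9.4. All 9 class I genes kept their direction and call with either of these libraries left out. KRT8, KRT18 and VIM, which this carcinoma line is known to express, were abundant, and EPCAM and CDH1 had no row. Of 16 leukocyte markers, 13 had no row, including the defining genes PTPRC, CD3E and CD14. The other 3, ITGAM, ITGAX and LAPTM5, rose, and their summed level was between 4.99 and 7.50 CPM (the usual depth-normalised count, here on TMM-scaled library totals) in control and between 14.7 and 19.3 CPM in knockdown libraries. The part of this rise in the results below was not tested. None of 8 endothelial and fibroblast markers had a row.

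The comparison of knockdown with control cells asks which transcripts differ when GAS41 is depleted. Transcripts of 8 of the 9 class I genes were higher after knockdown and those of TAP2 were lower, at an adjusted p under 0.05 (quasi-likelihood test of edgeR, Benjamini-Hochberg over all tested genes). Log2 fold changes of the rises ran from 0.44 for B2M to 2.46 for NLRC5. In the same fit 68.1% of all tested genes were called, 33.6% as higher and 34.5% as lower. The median log2 fold change was 0.84 over the 9 genes and −0.01 over all tested genes. A log2 fold change of at least 1 was reached by 2 of the 9, HLA-C and NLRC5. Of all tested genes, 6.4% were called as higher with a log2 fold change of at least 1. The ranges of the groups were apart for all 9 genes, and for 72.3% of the tested genes (35.6% with the knockdown higher and 36.7% with it lower). Together the 9 genes took between 0.0731 and 0.0804% of a control library's counts and between 0.111 and 0.127% of a knockdown library's.

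**Figure D2:**
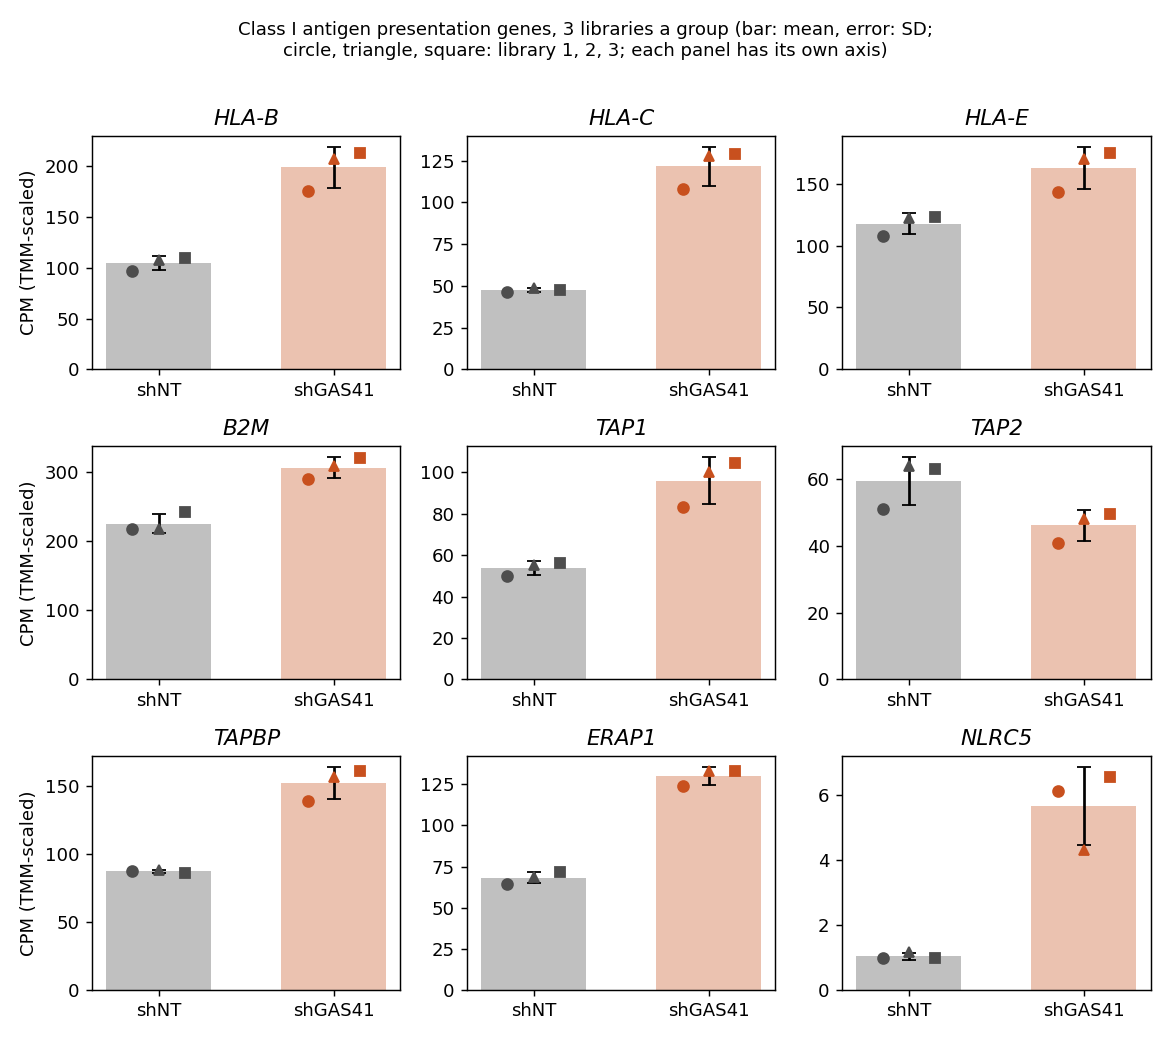
Level of each of the 9 genes (y axis: TMM-scaled CPM, a separate scale per panel) in 3 shNT and 3 shGAS41 libraries, with bars for the mean and error bars for the SD. TAP2 alone is lower after knockdown, and knockdown library 1 is the lowest of its group in 8 of the 9 panels.

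The activator NLRC5 (ENSG00000140853) changed most among the 9. Its counts were 71, 71 and 57 under the control vector and 398, 309 and 378 under the hairpin. These were 0.965, 1.14 and 0.962 CPM against 6.12, 4.30 and 6.55 CPM. The lowest knockdown library was thus well above every control library. The log2 fold change was 2.46 ± 0.19 (SE), a 5.51-fold rise (adjusted p = 1.40e-06, edgeR), and 99.5% of tested genes had a smaller log2 fold change. NLRC5 was a rare transcript in both groups, so counting error weighs more on it than on the other 8.

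HLA-C (ENSG00000204525), a classical heavy chain that presents peptides to T cells and is a ligand of killer cell receptors, rose most among the 3 heavy chains in the set. Its control values were 46.4, 48.7 and 47.8 CPM and its knockdown values 108, 128 and 129 CPM. Control libraries lay close together, far below the lowest knockdown library. The log2 fold change was 1.35 ± 0.07 (SE; adjusted p = 1.11e-07, edgeR). HLA-B (ENSG00000234745), the other classical chain here, had 97.4, 108 and 109 CPM in control and 176, 208 and 213 CPM in knockdown libraries. Its log2 fold change was 0.92 ± 0.08 (adjusted p = 2.70e-06).

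HLA-E (ENSG00000204592) is a nonclassical chain that mainly presents leader peptides of other class I chains to an inhibitory receptor of natural killer cells. It had 108, 123 and 123 CPM in control and 143, 170 and 174 CPM in knockdown libraries. The groups did not overlap, and the log2 fold change was 0.47 ± 0.08 (SE; edgeR adjusted p = 0.000495). B2M (ENSG00000166710), the light chain common to all of them, had 218, 218 and 242 CPM in control and 290, 310 and 320 CPM after knockdown. Its log2 fold change was 0.44 ± 0.06 (adjusted p = 5.26e-05). HLA genes are similar in sequence, so the HLA values are uncertain where reads could match several of them (treatment of such reads: not given in the sources used here).

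Ratios of counts within a library do not depend on how libraries are scaled, and they showed that the class I transcripts did not rise in step. HLA-C over HLA-B was 0.477, 0.452 and 0.437 in control and 0.616, 0.616 and 0.604 in knockdown libraries, a 1.34-fold difference of the means. HLA-B over HLA-E was 0.906, 0.880 and 0.888 against 1.23, 1.22 and 1.22, a 1.37-fold difference. In both cases every knockdown library was above every control library. HLA-E over B2M was 0.493, 0.563 and 0.509 in control and 0.494, 0.549 and 0.545 in knockdown libraries, so the groups overlapped. The 3 heavy chains summed over B2M went from 1.20 ± 0.0742 to 1.57 ± 0.0864 (mean ± SD, n = 3 each). These are ratios of read counts, not corrected for transcript length, and so compare groups and not the abundance of genes. With 3 libraries against 3 an exact two-sided permutation test of a ratio cannot give a p under 0.1, and none is given.

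The 2 chains of the peptide transporter moved in opposite directions. TAP1 (ENSG00000168394) had 49.8, 55.3 and 56.0 CPM in control and 83.0, 100.01 and 105 CPM in knockdown libraries. Its log2 fold change was 0.84 ± 0.08 (SE; adjusted p = 1.28e-05, edgeR). TAP2 (ENSG00000204267) had 51.2, 64.2 and 63.1 CPM in control and 40.8, 48.2 and 49.6 CPM in knockdown libraries. Here the groups came close without overlap: the highest knockdown value was just under the lowest control value. TAP2 had a log2 fold change of −0.36 ± 0.10 (95% interval −0.58 to −0.14; adjusted p = 0.00793), and its adjusted p was between 4.37e-08 and 0.0426 over the 14 alternatives. TAP1 over TAP2 was 0.972, 0.861 and 0.888 in control and 2.03, 2.08 and 2.11 in knockdown libraries. This ratio was 2.29 times as high after knockdown, and between 2.23 and 2.37 times as high with any library left out.

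TAPBP and ERAP1, which act on the peptide after transport, both rose. TAPBP (ENSG00000231925), which holds the empty heavy chain next to the transporter, had 86.9, 88.0 and 86.1 CPM in control and 139, 156 and 161 CPM in knockdown libraries. Its log2 fold change was 0.80 ± 0.06 (SE; adjusted p = 9.55e-07, edgeR). ERAP1 (ENSG00000164307), which shortens peptides to the length that class I molecules bind, had 64.5, 68.8 and 71.5 CPM in control and 124, 133 and 133 CPM after knockdown. Its log2 fold change was 0.93 ± 0.05 (adjusted p = 2.61e-07). Both genes overlap others in the RefSeq annotation, TAPBP with RGL2 and ERAP1 with CAST and ERAP2, and reads from overlapping genes cannot be told apart if counting ignored strand (use of strand: not given in the sources used here). The same limit holds for TAP1 and its ratios, because TAP1 overlaps the locus PSMB8-AS1. HLA-B overlaps MIR6891, B2M overlaps MIR10393 and NLRC5 overlaps CFAP69P1. RGL2 rose by 0.26 ± 0.07 and CAST by 0.69 ± 0.04 on the log2 scale. The CAST level was 363 ± 1.98 CPM under the control vector and 584 ± 5.14 CPM under the hairpin (mean ± SD, n = 3), and its part in the ERAP1 counts was not tested.

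Within the class I set, knockdown library 1, which stood apart over all genes, held the lowest knockdown value of 8 of the 9 genes, NLRC5 being the exception, with its lowest value in knockdown library 2. Control library 1, which also stood apart, held the lowest control value of 6 of the 9. TAP2, which fell, had the same order of knockdown libraries as TAP1 and HLA-B, which rose: library 1 lowest and library 3 highest. All 9 genes share these 6 libraries, so this is a description of the libraries and not of separate cultures.

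The genes whose log2 CPM over the 6 libraries was most like that of NLRC5 were CERS2 (Pearson r = 0.999), ELOVL4 (0.998), the locus listed as MIR24-2 (0.997), CD99 (0.997) and ZNF251 (0.997), of 10035 genes compared. The correlation reads the shape and not the size of a difference: CERS2 rose by 0.14 ± 0.04 (SE) on the log2 scale and ELOVL4 by 0.58 ± 0.07. An r over 0.99 was reached by 71 genes. The 6 libraries form 2 groups between which NLRC5 differed strongly. A high r thus mainly restates that difference and does not show a link to NLRC5.

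The transcription factors that carry NLRC5 to class I promoters split. NLRC5 binds DNA through a complex of RFX5, RFXAP and RFXANK on the X1 box, CREB1 or ATF1 on the X2 box and the NF-Y trimer on the Y box. RFX5 rose from 83.3 ± 5.83 to 120 ± 3.63 CPM (mean ± SD, n = 3; log2 fold change 0.53 ± 0.06, SE) and RFXANK rose by 0.32 ± 0.07. RFXAP fell, from 7.93 ± 0.762 to 4.32 ± 0.131 CPM (−0.87 ± 0.10). Of the NF-Y subunits, NFYC rose (0.28 ± 0.06), NFYB fell (−0.89 ± 0.06) and NFYA was not called (0.07 ± 0.05, adjusted p = 0.268, edgeR). CREB1 passed the test with 0.19 ± 0.07 (adjusted p = 0.0389, range 0.00146 to 0.135 over the alternatives) and lost its call without control library 2 (0.135) or 3 (0.0818), without knockdown library 1 (0.123) and with scaling by library size alone (0.0723). ATF1 was called in the other direction (−0.17 ± 0.06, adjusted p = 0.0321, range 0.00357 to 0.14) and lost its call without control library 1 (0.0507) or 3 (0.136), without knockdown library 2 (0.14) or 3 (0.0703) and with upper-quartile scaling (0.116).

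Interferon regulatory factors, which bind the ISRE, changed in both directions. IRF1, an activator, rose from 15.2 ± 1.17 to 37.5 ± 6.75 CPM, with knockdown library 1 the lowest of its group at 29.7 CPM (log2 fold change 1.31 ± 0.13, SE; adjusted p = 1.11e-05, edgeR). IRF2 rose from 16.9 ± 0.695 to 33.8 ± 1.19 CPM, and IRF3 fell by 0.44 ± 0.05 on the log2 scale. The NF-kB subunit genes RELA (0.07 ± 0.06, adjusted p = 0.317) and NFKB1 (0.09 ± 0.05, adjusted p = 0.144) were not called. NFKB1 was called without knockdown library 1 (adjusted p = 0.0376) and with upper-quartile scaling (0.0249), within a range of 0.0249 to 0.348. The subunit gene REL was called as lower (−0.19 ± 0.08, adjusted p = 0.0469), a call lost in 9 of 14 alternatives, each of the leave-one-out fits but that without control library 1 among them (range 0.0176 to 0.169). The Polycomb methyltransferase gene EZH2, known as a repressor of class I genes in some tumours, fell from 109 ± 7.62 to 75.6 ± 4.13 CPM. The EZH2 log2 fold change was −0.52 ± 0.06 here and −0.06, not called, in the authors' deposited table. A part of EZH2 in the class I changes was not tested. Of the 23 measured regulators on the list (26 entries), 9 rose, 8 fell and 6 were not called. Their median log2 fold change was 0.07, near that of all genes, and the shares were 39.1% higher and 34.8% lower, against 33.6% and 34.5%.

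Of 6 measured genes for other class I and class I-like heavy chains, 4 rose and 0 fell (median 0.57 on the log2 scale; 66.7% higher, against 33.6% of all tested genes). HLA-F, which had 0.938, 0.855 and 0.894 CPM in control and 3.09, 2.90 and 2.77 CPM in knockdown libraries, rose by 1.70 ± 0.15 (SE) on the log2 scale, and HLA-G, from 0.683 ± 0.0949 CPM, by 1.45 ± 0.18. The antibody receptor gene FCGRT rose by 0.55 ± 0.12. MR1, which presents microbial metabolites, and HFE, which acts in iron uptake, were not called (0.08 ± 0.20 and −0.11 ± 0.12).

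Genes that fold and load class I molecules mostly rose, by small amounts. Of 10 measured loading and quality control genes 7 rose, 1 fell and 2 were not called (median 0.19 on the log2 scale; 70% higher, against 33.6% of all tested genes). The tapasin homologue TAPBPL rose most, from 2.29 ± 0.263 to 5.27 ± 1.02 CPM (1.20 ± 0.16 on the log2 scale). The loading complex members PDIA3 (0.27 ± 0.05) and CALR (0.19 ± 0.04) rose as well. UGGT1, which returns misfolded glycoproteins to folding, fell, with a log2 fold change of −0.28 ± 0.05. Of the rises, CANX (0.12 ± 0.04, SE; adjusted p = 0.0269, edgeR) lost its call in 3 of 14 alternatives, within a range of 0.00377 to 0.0986. HSPA5 was not called (0.16 ± 0.07, adjusted p = 0.0542, edgeR) but was called in 6 of 14 alternatives.

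Among the catalytic subunits of the proteasome, which cuts the peptides, PSMB9 rose while PSMB6 and PSMB5 fell. In the immunoproteasome, PSMB8, PSMB9 and PSMB10 take the place of the constitutive subunits PSMB5, PSMB6 and PSMB7. PSMB9 had 7.31, 7.98 and 6.58 CPM in control and 21.6, 23.3 and 23.3 CPM in knockdown libraries (log2 fold change 1.64 ± 0.09, SE; adjusted p = 1.43e-07, edgeR). Its constitutive counterpart PSMB6 had 207, 224 and 207 CPM in control and 73.8, 88.4 and 92.0 CPM after knockdown (−1.33 ± 0.08; adjusted p = 3.12e-07). PSMB9 over PSMB6 was 0.0353, 0.0356 and 0.0319 in control and 0.293, 0.264 and 0.253 in knockdown libraries, 7.89 times as high. PSMB5 fell by 0.89 ± 0.06 on the log2 scale, and PSMB8 over PSMB5 went from 0.0977 ± 0.00867 to 0.214 ± 0.0239. PSMB10 over PSMB7 differed least of these pairs, with 0.0115 ± 0.00137 against 0.0154 ± 0.00192. PSMB7 was not called (0.07 ± 0.05, adjusted p = 0.220, range 0.0153 to 0.563); it was called without knockdown library 1 (0.0153) and with upper-quartile scaling (0.0385).

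PSMB8 itself rose little, from 17.7 ± 1.68 to 20.9 ± 1.29 CPM (mean ± SD, n = 3; log2 fold change 0.24 ± 0.08, SE; adjusted p = 0.0289, edgeR). Leaving out control library 2 (adjusted p = 0.0849) or 3 (0.0934), or knockdown library 1 (0.075) or 3 (0.0611), ended the call, within a range of 0.00228 to 0.0934 over the alternatives. PSMB10 rose from 4.43 ± 0.501 to 6.26 ± 1.13 CPM (adjusted p = 0.0120, and 0.0544 without knockdown library 2, in a range of 8.10e-05 to 0.0544). The genes of the proteasome activator PA28, PSME1 (0.86 ± 0.05) and PSME2 (0.65 ± 0.06), rose, and PSME3, whose product forms a nuclear activator, fell (−0.51 ± 0.07). Of the 15 measured genes for trimming and the immunoproteasome 8 rose, 3 fell and 4 were not called, a total called near the 68.1% over all genes. One of the falls, LAP3 (−0.18 ± 0.06), lost its call with upper-quartile scaling (adjusted p = 0.0551, edgeR) and without control library 2 (0.0931) or 3 (0.0883) or knockdown library 2 (0.051), in a range of 0.000239 to 0.0931. The cytosolic peptidase gene THOP1, which destroys class I peptides, fell by 0.37 ± 0.05 and NPEPPS rose by 0.50 ± 0.05.

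TAP2, PSMB8, TAP1 and PSMB9 are consecutive protein-coding genes on chromosome 6 in the RefSeq order, and TAP1 and PSMB9 are known to be read from a promoter they share. The log2 fold changes in that order were −0.36, 0.24, 0.84 and 1.64. PSMB9 over TAP1 rose from 0.136 ± 0.0164 to 0.239 ± 0.0195 (mean ± SD, n = 3 each), with no overlap between the groups. Neighbouring genes thus differed in direction, and the pair with the shared promoter rose by different amounts.

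**Figure D3:**
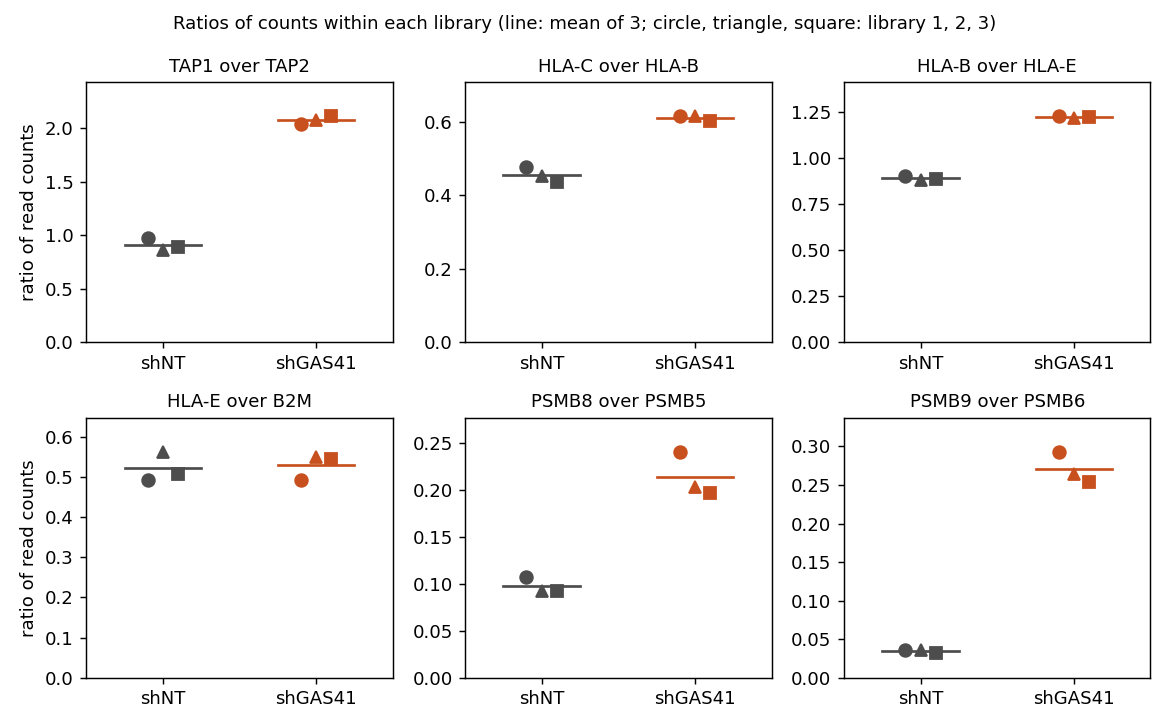
Ratios of read counts within each library (y axis, starting at 0, a separate scale per panel) for 6 pairs of genes in 3 shNT and 3 shGAS41 libraries, with lines at the mean. TAP1 over TAP2 is 2.29 times and PSMB9 over PSMB6 7.89 times as high after knockdown, while HLA-E over B2M overlaps between the groups.

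Of 13 measured interferon receptor and signalling genes, 10 rose, 2 fell and 1 was not called (76.9% higher, against 33.6% of all tested genes), with a median log2 fold change of 0.34. The receptor chain genes IFNGR2, from 90.6 ± 5.09 to 174 ± 7.16 CPM, and IFNAR2, from 17.2 ± 0.535 to 39.9 ± 6.68 CPM, and the kinase gene JAK1 (0.61 ± 0.05, SE) were among the rises. SOCS1, a feedback inhibitor that interferon induces, had 0.435, 0.693 and 0.439 CPM in control and 3.32, 3.50 and 3.26 CPM in knockdown libraries. CGAS, the cytosolic DNA sensor gene, fell by 0.59 ± 0.12 and PTPN11 by 0.14 ± 0.04. The PTPN11 call was lost with upper-quartile scaling (adjusted p = 0.0535, edgeR, in a range of 0.00267 to 0.0535). Of 24 interferon-stimulated genes, 13 were measured, of which 8 rose, 3 fell and 2 were not called. The shares were 61.5% higher and 23.1% lower, against 33.6% and 34.5% of all tested genes. They cover the measured genes only, and MX1, OAS1 and GBP1 were among those not measured. IFIT2 (2.66 ± 0.16) and IFIT3 (1.30 ± 0.10) had the smallest p among the rises, OAS3 (−0.39 ± 0.06) and BST2 (−1.19 ± 0.21) among the falls. BST2 was rare, with 1.98 ± 0.193 CPM in control and 0.870 ± 0.224 CPM in knockdown libraries (mean ± SD). The authors' deposited table called IFIT2 but not IFIT3, OAS3 or BST2, and gave BST2 the opposite sign (0.54, and −0.02 for OAS3). The summed level of the 13 measured genes was 166.9 to 183.1 CPM in control and 183.3 to 194 CPM in knockdown libraries, so the groups nearly met.

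Class II genes, which present peptides to helper T cells, had no row: none of the 11 on the list, from HLA-DRA to CD74, was among the genes of the table. The class II activator gene CIITA had none either. Of 10 measured ligands that natural killer cells and T cells read beside class I, 6 rose, 1 fell and 3 were not called (60% higher, against 33.6% of all tested genes, and a total called near the 68.1% over all genes), with a median log2 fold change of 0.41. CD276, a checkpoint ligand, rose from 50.6 ± 2.55 to 138 ± 3.30 CPM (1.45 ± 0.05, SE; adjusted p = 1.39e-08, edgeR), and NECTIN2 rose by 0.80 ± 0.06. MICA, a stress ligand and the protein-coding neighbour of HLA-B, had a log2 fold change of 0.63 ± 0.07.

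Of the rises, ULBP2 (0.41 ± 0.13, SE) lost its call without knockdown library 3 (adjusted p = 0.0774, edgeR, in a range of 0.00621 to 0.0774). ULBP1 was the ligand that fell (−0.28 ± 0.09, SE; adjusted p = 0.0222, edgeR). Leaving out control library 2 (adjusted p = 0.0635) or 3 (0.0577), or knockdown library 1 (0.0713) or 2 (0.0675), ended the call, within a range of 0.00123 to 0.0713. CD274, which encodes the checkpoint ligand PD-L1, had 1.86, 2.60 and 2.85 CPM in control and 2.07, 3.51 and 4.12 CPM in knockdown libraries. The groups overlapped and it was not called (0.41 ± 0.25, adjusted p = 0.167). Without knockdown library 1 it was (adjusted p = 0.00776, in a range of 0.00776 to 0.499).

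Genes that set how much class I stays at the surface went both ways. Of 12 measured, 7 rose, 3 fell and 2 were not called, with a median of 0.21 (58.3% higher and 25% lower, against 33.6% and 34.5% of all tested genes). SUSD6, TMEM127 and WWP2, which together send class I molecules to degradation, rose by 0.37 ± 0.08, 0.45 ± 0.04 and 0.49 ± 0.05 (SE) on the log2 scale. The ubiquitin ligase gene MARCHF4, which can also act on class I, fell by 0.52 ± 0.05, and the adaptor gene AP1M1 fell by 0.50 ± 0.04.

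**Figure D4:**
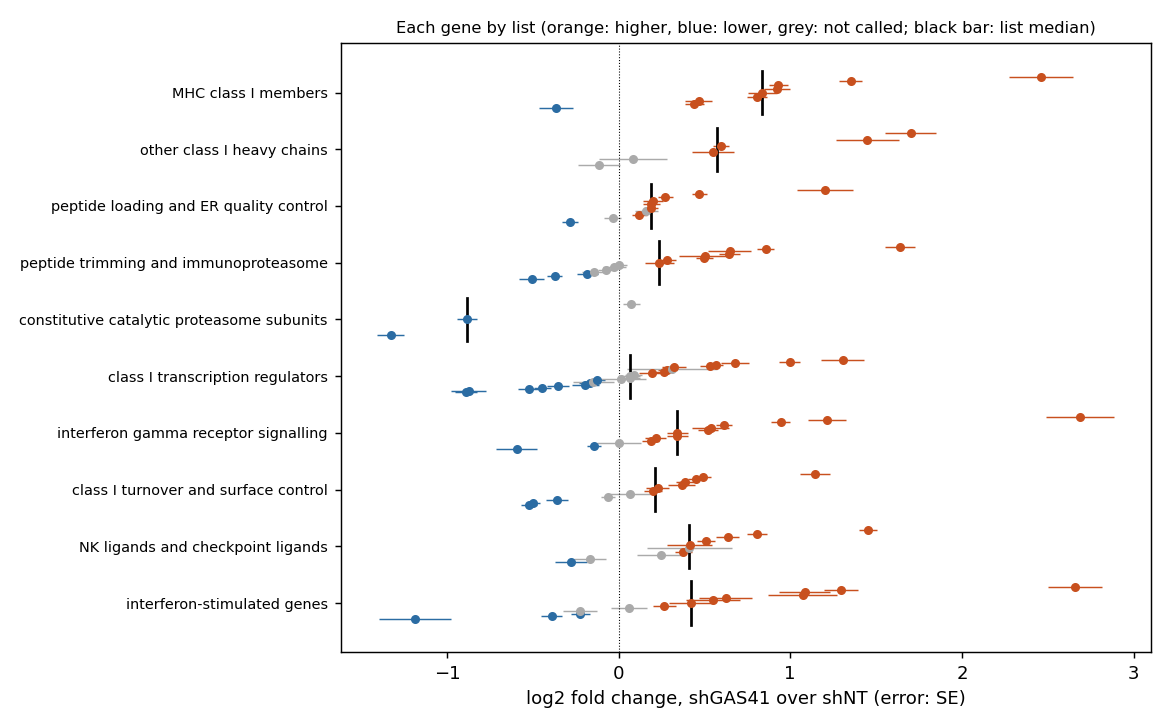
Log2 fold change (x axis, knockdown over control, error bars SE) of each measured gene in the class I set and 9 related lists (y axis), with colours for the call and black bars for list medians. The class I set has the highest list median, 0.84, and the constitutive proteasome subunits the lowest, −0.89.

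The authors' deposited table gave the same direction for all 9 class I genes and an adjusted p under 0.05 for each. Of all genes in the authors' deposited table, 33.2% were called, 18.6% as higher and 14.6% as lower. It gave NLRC5 a log2 fold change of 2.40, HLA-C 1.21, HLA-B 0.90 and TAP2 −0.21 (adjusted p = 0.0308). Differences from the values above ran from −0.15 to 0.15 over the 9 genes. Among the 105 other measured genes of the lists, the authors' deposited table called 41 (32 higher and 9 lower), against 82 here (59 higher and 23 lower). Many of the calls given above for list genes were thus not made there. Over all tested genes the calls were 4595 there and 9425 here. The sign in the authors' deposited table was opposite for 16 of the 105, none of them called in both. The falls given above for BST2, REL, ULBP1 and LAP3 were among these, with 0.54, 0.29, 0.17 and 0.04 there. Over all tested genes the sign in the authors' deposited table was opposite for 2417 of 13846, also with 0 called in both (the authors' model: not given in the sources used here). The median log2 fold change over all genes was 0.12 in the authors' deposited table and −0.01 here.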

How the data were processed

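RNA from H1299 cells was sequenced in 3 shNT and 3 shGAS41 libraries, grouped by their titles. The 6 chromatin immunoprecipitation samples were not analysed here. The table the authors deposited holds raw read counts per Ensembl gene, and the authors' own log2 fold change, p-value and adjusted p-value. HTSeq, TopHat2 2.0.10, Bowtie2 2.1.0, CASAVA 1.8.2, MACS 1.4.2 and the build hg19 stand, without roles, in the submitters' processing notes (counting options: not given in the sources used here).

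Counts were tested with edgeR 4.0.16 (limma 3.58.1, R 4.3.3): filterByExpr, TMM scaling, robust quasi-likelihood fit, no replicate block, Benjamini-Hochberg adjustment over 13846 genes at 0.05. CPM values are TMM-scaled, and each SE was taken as the absolute log2 fold change divided by the square root of F. The code was tested on simulated counts. Gene lists (10 lists beside the class I set, 136 entries, 105 measured) were matched by symbol or by Ensembl identifier. Genes named are the 9 class I genes, YEATS4, up to 2 rises and 2 falls of smallest p per list, and any measured member of lists of up to 16 entries. RGL2 and CAST (overlap), and the regulators beyond those 2 per direction, were named outside that rule, for their place in the pathway and after their values were seen. Other overlapping loci were named from the RefSeq annotation alone. For the gene of largest change, the 5 genes of highest Pearson r with a mean log2 CPM of at least 3 were named. The members and lists were chosen with earlier results of these data known. Some list genes are not reported here. Promoter motifs were searched as text, and windows were aligned with Biopython 1.88. Alternatives are in the closing section. Depth was high, so the spread between libraries limits precision for most genes.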

Additional observations from a re-analysis of the deposited data

How the results depend on the processing

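The 9 class I genes kept their direction and their call in all 14 alternatives: DESeq2, median-ratio size factors, library size alone, upper-quartile scaling, no filter, a filter of 1 CPM in 3 libraries, no robust dispersion, each of the 6 libraries left out, and the replicate block. The count of all genes called was 9425, and 8518 to 9377 with a library left out. Of the 105 other list genes, 82 were called, 75 to 84 with a library left out; 85 kept their call throughout, 20 did not in at least 1 alternative, and 0 called genes reversed. With the replicate number as a block, 10394 genes and 89 list genes were called. Same-numbered libraries deviated together with correlations of 0.446, 0.0783 and 0.0940, and libraries of unlike number with −0.313 to 0.270. The libraries numbered 1 thus deviated alike. Those numbered 2 and 3 deviated more like the other number (0.269 and 0.270) than like their own. Deviations were taken from the mean of each group, so the libraries of a group are tied to one another. These correlations are therefore not independent, and they cannot decide whether libraries were paired. Whether a number marks a shared culture or day was not tested, and the block is given only here. With the block CD274 was also called (adjusted p = 0.0175, edgeR). Over the scalings the median log2 fold change of all genes lay between −0.03 and 0.04. Low counts limit the precision for NLRC5, HLA-F, HLA-G, SOCS1 and BST2.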
